A study of Mus musculus with 2 samples.

Results

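Potassium channel subunits were taken from 2 single-nucleus RNA libraries of mouse heart as all gene symbols made of Kcn, lower-case letters and a closing number. Of 32245 symbols in the annotation used for counting, 92 had such a name, and 55 of these had at least 20 unique molecular identifiers (UMIs, the count of distinct captured RNA molecules) over both libraries together. These 55 genes are described here, against 16273 symbols of any kind that reached the same minimum. By family they were 22 voltage-gated subunits with their silent partners, 9 inward rectifiers, 7 two-pore leak channels, 7 calcium- or sodium-activated channels and 10 accessory subunits. The other 37 symbols had too few UMIs and are not described.

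The series held 1 library per group, each from cardiac tissue of male C57Bl6/J mice aged 3.5 months. Mice of both groups carried Tcf21-MerCreMer, a Cre recombinase that tamoxifen switches on in cells using the promoter of Tcf21, a gene of resident fibroblasts, and mice of both groups received tamoxifen. The CF-KI mice were homozygous for the activating Nlrp3 allele A350V, the control mice had WT Nlrp3, and the design text states that the allele stays silent in cells without Cre. How many animals gave each library is not given in the sources used here. With 1 library per group no difference between the groups has a replicate check, so no p-value is given; every interval below is a 95% exact interval that covers counting error only.

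The mouse heart repolarises through several potassium currents laid over one another. Transient outward channels open early in the action potential, delayed rectifiers follow, inward rectifiers hold the resting potential, and acetylcholine-gated inward rectifiers slow the atria. Outside the myocytes, channels that open when ATP is low set the tone of small vessels through pericytes and smooth muscle, and endothelial cells and fibroblasts carry leak and calcium-activated channels of their own. Most pore-forming subunits work only in assemblies with partners, so a subunit's RNA is a measure of one part of a channel and not of a current.

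Of 15077 CF-KI barcodes with 21603653 UMIs and 11257 control barcodes with 18040776 UMIs, 62.7% and 86.3% were kept as nuclei; the median barcode held 14.2% mitochondrial UMIs in the CF-KI library and 3.46% in the control library, and 46 barcode sequences occurred in both. The kept nuclei were clustered without any Kcn gene and classes were named from marker lists, so "ventricular" below stands for ventricular cardiomyocyte-like, and likewise for the other classes. Levels are given in CPM: a gene's UMIs divided by all non-mitochondrial UMIs of the same library and class, times 1000000. The check of the libraries by the targeted gene was limited by depth: Nlrp3 had 0 UMIs in control fibroblast nuclei, which allows up to 0.924 CPM, and 4 in CF-KI fibroblast nuclei. A further 16 Nlrp3 UMIs lay in control macrophage nuclei and 8 in CF-KI ones, and ventricular nuclei held 7 in the CF-KI library and 0 in the control library. Atrial nuclei had Nppa 5.54 log2 units above ventricular nuclei in the control library and 4.92 in the CF-KI library, and the ventricular genes Irx4 and Hey2 at 0 UMIs in both. These genes are on the lists that named the chambers, so their values describe the naming and are no check of it. For Irx4 and Hey2, 0 UMIs allow up to 0.28 and 0.05 log2 units above the ventricular level in the control library. In the CF-KI library they allow up to 2.31 and 3.37. Myl2 and Myl3 did not separate the chambers (log2 atrial over ventricular of -0.42 and -0.49 in the control library), so ventricular nuclei are those cardiomyocyte nuclei without raised atrial markers. Chamber could not be resolved for 568 CF-KI and 59 control cardiomyocyte nuclei.

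A 3' count depends on each gene's own capture, so a gene is compared below with itself across classes and not with other genes. The 4 members that follow show how sharply a subunit could be tied to one class. Kcnj8, the pore of the vascular ATP-sensitive channel, stood at 896 CPM (301 UMIs) in control pericyte nuclei and at 1142 CPM (264 UMIs) in CF-KI pericyte nuclei. The next of the larger classes for Kcnj8 was endothelial, at 91.2 CPM (84 UMIs) and 109 CPM (183 UMIs), and the intervals of pericyte and endothelial levels did not overlap in either library. Kcna5, a voltage-gated subunit that makes an ultrarapid delayed rectifier, stood at 232 CPM (214 UMIs) in control endothelial nuclei and at 154 CPM (258 UMIs) in CF-KI ones. The next of the larger classes for Kcna5 was pericyte, at 17.85 CPM (6 UMIs) in control and 38.9 CPM (9 UMIs) in CF-KI nuclei. In ventricular nuclei Kcna5 stood at 0.748 CPM (4 UMIs) and 2.23 CPM (8 UMIs). Kcnip2, the calcium-binding partner of the transient outward channel, reached 108 CPM (575 UMIs) in control and 85.1 CPM (305 UMIs) in CF-KI ventricular nuclei. The next of the larger classes for Kcnip2 was macrophage, at 15.2 CPM (12 UMIs) in control and 27.4 CPM (21 UMIs) in CF-KI nuclei. In atrial nuclei of the control library Kcnip2 was at 17.5 CPM on 3 UMIs. Kcnj3, a pore subunit of the acetylcholine-gated channel, had 286 CPM (49 UMIs) in control atrial nuclei and 176 CPM (7 UMIs) in the 23 CF-KI atrial nuclei, against 35.7 CPM and 37.1 CPM in ventricular nuclei. Both libraries thus placed Kcnj8 highest in pericytes, Kcna5 in endothelium, and Kcnj3 higher in atrium than in ventricle.

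The 250 bases before the RefSeq start of these 4 genes are shown. Among the larger classes Kcnip2 and Kcnj3 both led in ventricular nuclei, with Kcnj3 higher in the atrial nuclei than in those. On GRCm38.p6 they lie at chr6:142571615-142571864 (minus strand, Kcnj8), chr6:126535556-126535805 (minus strand, Kcna5), chr19:45816064-45816313 (minus strand, Kcnip2) and chr2:55435720-55435969 (plus strand, Kcnj3). Each is written 5′ to 3′ on the strand of its gene, and capitals mark the motif matches described after them.
Kcnj8: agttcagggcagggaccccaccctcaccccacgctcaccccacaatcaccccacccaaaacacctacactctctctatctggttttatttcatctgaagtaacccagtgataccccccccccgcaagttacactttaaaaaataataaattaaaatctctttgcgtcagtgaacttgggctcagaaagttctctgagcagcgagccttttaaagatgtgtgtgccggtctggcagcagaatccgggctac
Kcna5: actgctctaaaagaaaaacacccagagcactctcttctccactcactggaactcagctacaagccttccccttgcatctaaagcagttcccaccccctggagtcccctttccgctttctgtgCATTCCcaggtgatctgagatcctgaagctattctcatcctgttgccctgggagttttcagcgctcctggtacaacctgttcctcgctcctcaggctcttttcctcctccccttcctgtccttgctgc
Kcnip2: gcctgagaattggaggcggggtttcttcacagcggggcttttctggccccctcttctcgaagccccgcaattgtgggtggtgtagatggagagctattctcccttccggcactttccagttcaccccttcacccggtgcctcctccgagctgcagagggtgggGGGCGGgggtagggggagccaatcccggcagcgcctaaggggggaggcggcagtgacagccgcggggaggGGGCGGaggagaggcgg
Kcnj3: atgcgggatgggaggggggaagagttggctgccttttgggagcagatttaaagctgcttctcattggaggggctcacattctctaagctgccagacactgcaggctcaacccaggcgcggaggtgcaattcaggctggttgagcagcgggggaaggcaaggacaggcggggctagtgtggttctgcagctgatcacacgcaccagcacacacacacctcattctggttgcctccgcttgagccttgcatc
Both strands were searched for 5 short motifs. The letters TATAAA stood for the box that positions many start sites, and GGGCGG for the GC box bound by Sp factors. For the factors of blood vessels and heart, GATAAG stood for the GATA family, GGAAGT for the ETS family and CATTCC for the M-CAT element of TEAD factors. The Kcnip2 window held the GC box at 87 to 82 and again at 17 to 12 bases before the start, and was 66.8% G and C against a median of 52.4% over all windows. The Kcna5 window held 1 M-CAT at 128 to 123 bases before the start, and the Kcnj8 and Kcnj3 windows held none of these letters. No 2 matches overlapped. Among 32851 windows of the same length the GC box occurred in 32.7%, the ETS letters in 19.7%, the M-CAT element in 12.6%, the start-site box in 12.4% and the GATA family's letters in 6.55%. RefSeq windows were found for 40 of the 55 members; of their 58 windows 24 held a GC box, 7 the M-CAT element, 5 the ETS letters, 4 the GATA letters and 2 the start-site box. A match describes the letters and is not a binding site.

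Over the 7 classes with more than 200000 UMIs in each library, 42 members in the control library and 40 in the CF-KI library had the 20 UMIs needed to rank their levels, and 39 were ranked in both. Of these 39, 33 were highest in the same class in both libraries. Ventricular nuclei led for 17, fibroblast, endothelial, endocardial, pericyte and mesothelial nuclei for 3 each, and macrophage nuclei for 1. For several of the 17 the CF-KI lead over the next class had an interval that included 0. Examples were Kcnj2 (log2 0.23, -0.94 to 1.71), Kcnk3 (0.29, -0.28 to 0.91) and Kcnq1 (0.33, -1.62 to 3.43). The members whose leading class differed were Kcnab1, Kcnh7, Kcnip3, Kcnj13, Kcnk7 and Kcnn1, and each had 7 or fewer UMIs in the leading class of at least one library. Ranking over all classes with at least 50 nuclei in a library put 17 of 42 control members and 9 of 41 CF-KI members highest in cardiomyocyte nuclei, and only 19 of 39 in the same class. That ranking admits small classes: 8 CF-KI members were highest in 65 platelet-like nuclei on 1 to 4 UMIs each, and the 23 CF-KI atrial nuclei were too few to be ranked. The restriction to larger classes was chosen after these results were seen. How all genes rank over the classes was not measured, so the counts of neither ranking are set against other genes. Ventricular nuclei held the most UMIs of any class in both libraries (5347893 control and 3585942 CF-KI), which eases reaching the 20 UMIs for genes high there.

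**Figure D1:**
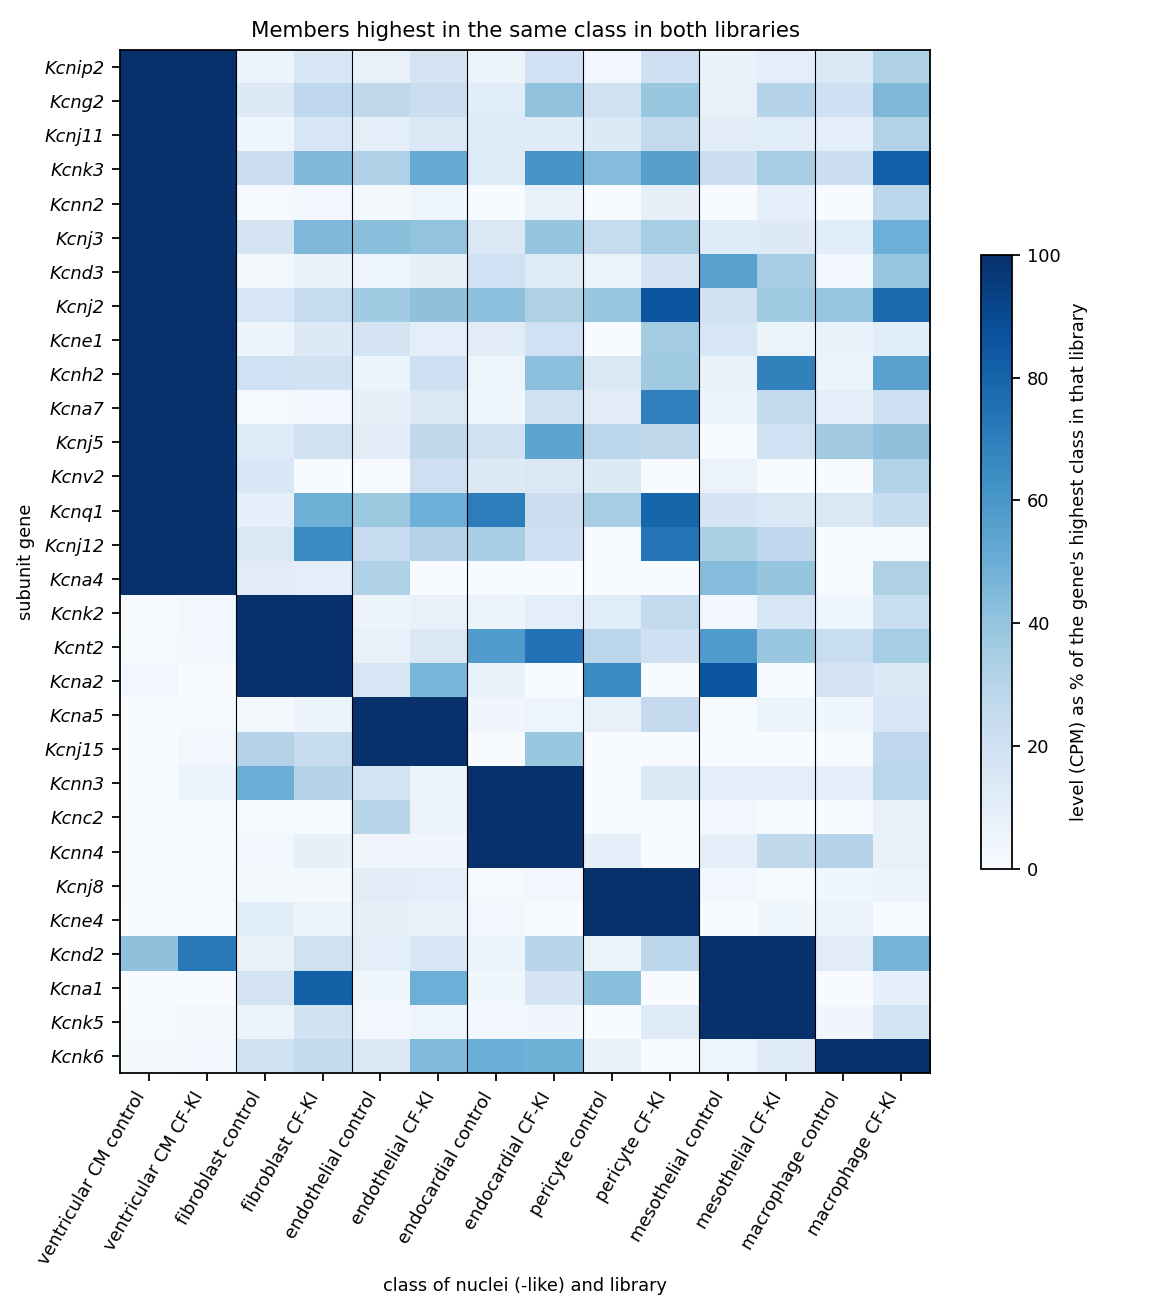
Heat map of 30 of the members highest in the same of the 7 larger classes in both libraries. Rows are genes, columns are classes with the control library left and the CF-KI library right of each pair, and colour is the CPM level as a percentage of that gene's highest class in that library, so each leading class is at 100% by construction. Kcnj8 is pale outside the pericyte columns, and many of the ventricular genes are darker in CF-KI than in control columns of other classes.

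The voltage-gated pores of the transient outward current did not share one leading class. Kcnd3, a pore of the fast part of that current, was highest in ventricular nuclei among the larger classes and had 44.9 CPM (240 UMIs) in control and 50.5 CPM (181 UMIs) in CF-KI ventricular nuclei. Kcnd2, the other pore of that current, was higher in mesothelial than in ventricular nuclei: 55.9 CPM (38 UMIs) against 23 CPM (123 UMIs) in the control library and 46.7 CPM (29 UMIs) against 33.5 CPM (120 UMIs) in the CF-KI library. Its mesothelial excess was therefore clearer in the control library, where the levels' intervals did not overlap. Kcna4, which carries a slow transient outward current, had only 36 and 29 UMIs in control and CF-KI ventricular nuclei (6.73 and 8.09 CPM).

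Delayed rectifier genes were divided between myocytes and endothelium. Within endothelium, in the cluster led by Rgcc, Cxcl12, Gpihbp1 and Car4, genes of capillaries, Kcna5 stood at 284 CPM (control) and 176 CPM (CF-KI), and in the cluster led by Ccdc85a and Aplnr at 102 and 34.5 CPM. Kcnh2, the pore of the rapid delayed rectifier, had 21.3 CPM (114 UMIs) and 11.7 CPM (42 UMIs) in control and CF-KI ventricular nuclei. Kcnq1, the pore of the slow delayed rectifier, was at 8.60 CPM (46 UMIs) and 10.9 CPM (39 UMIs) there, and its accessory subunit Kcne1 at 18.1 CPM (97 UMIs) and 24.3 CPM (87 UMIs). Kcnq1 lies across the antisense transcript Kcnq1ot1. Whether the counting used strand is not given in the sources used here, so it is not known whether the Kcnq1 counts include Kcnq1ot1 reads.

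Silent subunits change the gating of other pores without making a channel alone. Kcng2 and Kcnv2 were highest in ventricular nuclei among the larger classes. Kcng4 and Kcns3 (24 and 20 UMIs over all barcodes, named after their values were seen) had 0 UMIs in ventricular nuclei of either library. There 3 UMIs make 0.561 CPM in the control library and 0.837 CPM in the CF-KI library. In the control library Kcng2 was higher still in atrial nuclei, at 75.9 CPM on 13 UMIs, with a chamber interval that included 0. Kcng2 had 60.2 CPM (322 UMIs) in control and 100 CPM (360 UMIs) in CF-KI ventricular nuclei, and Kcnv2 had 22.8 CPM (122 UMIs) and 8.37 CPM (30 UMIs). Kcna7, a pore of muscle, had 26.6 CPM (142 UMIs) and 12.6 CPM (45 UMIs). Further voltage-gated genes were sparse. Kcna1 was highest among the larger classes in mesothelial nuclei (28.0 and 14.5 CPM on 19 and 9 UMIs) and Kcna2 in fibroblast nuclei (13.8 and 10.3 CPM). The next class was close for Kcna1 in the CF-KI library (fibroblast, 11.8 CPM) and for Kcna2 in the control library (mesothelial, 11.77 CPM). For both genes the interval of the lead over the next class included 0 in either library, so these leading classes are not resolved.

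Kcnc2, a fast delayed rectifier pore, was highest in endocardial nuclei. It had 52.4 CPM (52 UMIs) in control and 52.8 CPM (43 UMIs) in CF-KI endocardial nuclei and at most 15.2 CPM in any other larger class. A small endocardial cluster led by Hapln1, Wnt9b, Inhba and Pthlh, with 66 control and 59 CF-KI nuclei, held Kcnc2 at 147 CPM (25 UMIs) and 237 CPM (22 UMIs), against 32.9 and 29.1 CPM in the main endocardial cluster. The name of the small cluster is uncertain: its mean marker score was 2.9 for another vascular list and 2.84 for the endocardial one, it was named by its leading genes, and at Leiden resolution 2.5 the cluster with those leading genes was named endothelial. The calcium-activated channels Kcnn3 and Kcnn4 were also higher in the small cluster: Kcnn3 at 112 CPM (19 UMIs) in control and 172 CPM (16 UMIs) in CF-KI nuclei against 12.2 and 13.9 CPM in the main one, and Kcnn4 at 88.0 and 96.8 CPM against 21.9 and 8.32 CPM. Kcnt2, a sodium-activated channel, went the other way in those clusters, with 2 control and 0 CF-KI UMIs in the small one and 70.6 and 87.3 CPM in the main one. All 55 members had been left out of the genes used for clustering.

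Most inward rectifiers ranked were highest in ventricular nuclei among the larger classes, while Kcnj8 led in pericytes, Kcnj15 in endothelium and Kcnj13 in a different class in each library. Kcnj2, the main pore of the current that holds the resting potential, had 38.7 CPM (207 UMIs) in control and 30.4 CPM (109 UMIs) in CF-KI ventricular nuclei, and its relative Kcnj12 had 8.79 CPM (47 UMIs) and 5.86 CPM (21 UMIs). Kcnj11, the myocyte pore of the ATP-sensitive channel, had 65.5 CPM (350 UMIs) and 83.7 CPM (300 UMIs). Kcnj5, which pairs with Kcnj3, had 10.5 CPM (56 UMIs) and 15.9 CPM (57 UMIs). Kcnj13 was spread thinly, at 8.98 and 5.86 CPM in ventricular nuclei, and Kcnj15 had in endothelium 13 CPM (12 UMIs) and 9.54 CPM (16 UMIs).

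The partners of Kcnj8 and Kcnj11 are the sulfonylurea receptors Abcc9 and Abcc8, each coded by a gene that neighbours the channel's own. Abcc9 was highest where Kcnj8 was: 1372 CPM (461 UMIs) in control and 1752 CPM (405 UMIs) in CF-KI pericyte nuclei, then 178 and 286 CPM in endothelial nuclei. In ventricular nuclei Abcc9 stood at 91.3 and 138 CPM, and Abcc8 at 32.4 and 26.2 CPM. In pericytes 2 accessory subunits stood beside Kcnj8 and Abcc9. Kcne4, which damps several voltage-gated pores, had 41.7 CPM (14 UMIs) in control and 43.3 CPM (10 UMIs) in CF-KI pericyte nuclei. Kcnmb1, the vascular subunit of the large calcium-activated channel, had 32.7 CPM (11 UMIs) and 38.9 CPM (9 UMIs), though Kcnmb1 lies within Kcnip1 on the opposite strand. The pore that Kcnmb1 serves, Kcnma1, had only 32 UMIs over all barcodes of both libraries. Smooth muscle nuclei were too few for the ranking (29 control, 25 CF-KI); in them the accessory subunit Kcnab1 had 423 CPM (14 UMIs) and 244 CPM (5 UMIs), above its level in every larger class of the same library.

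Two-pore leak channels were spread over several leading classes. Kcnk2, a mechanically gated leak channel, was a fibroblast gene at 155 CPM (620 UMIs) in control and 101.2 CPM (266 UMIs) in CF-KI nuclei, against at most 28.7 CPM in the other classes compared apart from airway nuclei of the control library, which had 149 CPM on 24 UMIs. Kcnk3, an acid-sensitive leak channel, was highest in adipocyte nuclei at 163 CPM (46 UMIs) and 85.0 CPM (14 UMIs), followed by the cardiomyocytes (41.0 and 46.3 CPM in ventricular nuclei). In the CF-KI library the interval of its lead over ventricular nuclei included 0 (log2 0.88, -0.03 to 1.66). Kcnk6 was highest in macrophage nuclei at 87.2 CPM (69 UMIs) and 40.5 CPM (31 UMIs), and next in endocardial nuclei at 43.3 and 19.7 CPM. Kcnk13, known from microglia, was at 19.0 CPM (15 UMIs) in control macrophage nuclei and 7.83 CPM (6 UMIs) in CF-KI ones, with at most 2 UMIs in any other class compared. Kcnk5 was highest among the larger classes in mesothelial nuclei at 39.7 and 35.4 CPM. Kcnk7 had 30 control and 73 CF-KI UMIs over all barcodes and no class at or above 12 CPM among the larger ones.

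Of the calcium- and sodium-activated channels, Kcnn2 was a myocyte gene at 57.4 CPM (307 UMIs) in control and 54.9 CPM (197 UMIs) in CF-KI ventricular nuclei, with at most 2 UMIs in any other named class of the control library outside the cardiomyocytes. In the CF-KI library the next of the larger classes was macrophage, at 15.7 CPM (12 UMIs). Kcnn3 was highest in lymphatic endothelial nuclei at 144 CPM (15 UMIs) and 203 CPM (29 UMIs). Kcnt2 had 104 CPM in fibroblast nuclei of both libraries (414 control and 273 CF-KI UMIs), followed by endocardial nuclei at 60.5 and 77.4 CPM. Kcnn1 had 37 control and 16 CF-KI UMIs in ventricular nuclei.

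Between the chambers, Kcnj3 had the clearest difference. In the control library, where 91 atrial nuclei carried 171196 UMIs, 24 members had at least 20 UMIs over atrial and ventricular nuclei; 5 were at least 2-fold higher in atrial nuclei, where 15.0% of all 10326 genes measured the same way were, and 4 at least 2-fold lower, where 6.94% of all genes were. Among the higher ones, Kcnj3 was 3.0 log2 units higher (interval 2.52 to 3.46), Kcnh7 2.87 (1.77 to 3.84), Kcna4 2.12 (0.41 to 3.47) and Kcnj12 2.0 (0.48 to 3.22). Of the 5, only Kcnj3 rested on more than 11 atrial UMIs. Among the lower ones, Kcnip2 was at -2.62 (-4.90 to -1.06), while Kcne1 and Kcnv2 had 1 atrial UMI each and intervals that reached past 0. Kcnj5, the partner of Kcnj3, had 3 atrial UMIs and no resolved difference (0.74, -1.58 to 2.36).

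The CF-KI library had 23 atrial nuclei with 39845 UMIs, so 3 UMIs there already make 75.3 CPM. Of 22 members measured, 7 were at least 2-fold higher in atrial nuclei (21.8% of all genes) and 3 lower (3.33%), and Kcna7 lay at the threshold on 1 atrial UMI. The 3 lower ones, Kcnd3, Kcnj11 and Kcnn2, had 1 atrial UMI each and intervals that reached past 0. Kcna4 and Kcnj12 among the higher ones also had 1. Members with 0 atrial UMIs were set to 3 UMIs and could not be called lower. The count of 3 is therefore not read against the 3.33%. The interval left out 0 for Kcnj3 (2.24, 0.90 to 3.33) and for Kcnh2 (3.10, 1.16 to 4.56, on 4 atrial UMIs). Kcnip2 was at -0.76 (-3.81 to 1.10) on 2 UMIs, and Kcnh7 had 0 atrial UMIs, which at this depth allows up to 3.97 log2 units above its ventricular level. Of the genes that act on the acetylcholine-gated channel, the muscarinic receptor Chrm2 was higher in atrial nuclei by 1.72 (control) and 1.49 (CF-KI) log2 units and Rgs6, which speeds the closing of that channel, by 2.08 and 2.59. The others on the list were not uniform: in the control library the G protein subunit Gnao1 was at 2.90 (1.80 to 3.87), Gnai2 at -0.60 (-3.67 to 1.29) and the adenosine receptor Adora1 at -1.16 (-6.49 to 1.36), and each of these 3 had 0 atrial UMIs in the CF-KI library. Abcc8 was also higher in atrial nuclei, by 1.92 (1.19 to 2.58) and 2.52 (1.04 to 3.70), and Abcc9 lower in the control library, at -1.64 (-3.27 to -0.41). The opposite chamber order of the receptors Abcc8 and Abcc9 stood beside no resolved chamber difference in Kcnj11 (0.21, -0.71 to 1.01 in the control library).

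**Figure D2:**
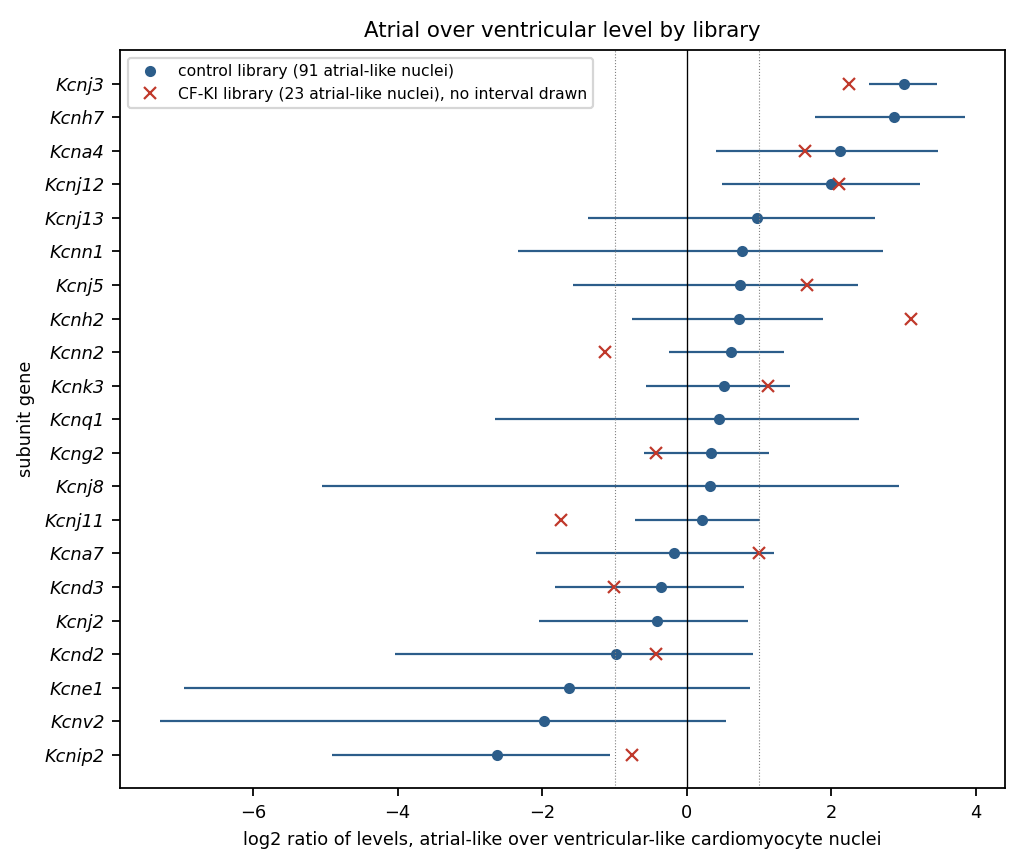
Log2 ratio of atrial to ventricular level for members measured in the control library (dots with 95% counting intervals), with the CF-KI ratio as a cross; dotted lines mark 2-fold. Kcnj3 is at the top, at 3.0 in the control and 2.24 in the CF-KI library, and Kcnip2 at the bottom with -2.62 in the control library; values without an atrial UMI are not drawn.

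The main comparison between libraries concerns ventricular myocytes, given the arrhythmia in the series title. There, 26 members had at least 20 UMIs. Their median log2 ratio of CF-KI over control was -0.13, beside 0.14 over all 11707 genes measured the same way; 12 members were higher and 14 lower in the CF-KI library. At least 2-fold higher was 1 member, Kcnj8, where 9.68% of all genes were, and at least 2-fold lower were 2, Kcnv2 and Kcna7, where 2.35% of all genes were. Kcnv2 was at -1.45 (-2.07 to -0.86) and Kcna7 at -1.08 (-1.60 to -0.59). Kcnj8 was at 1.33 (0.58 to 2.10), but at 0.53 with at least 500 genes per nucleus, 0.58 when nuclei were thinned to 500 UMIs and 0.86 with free RNA subtracted; Kcna7 was at -0.94 with at most 5% mitochondrial UMIs, -0.95 at Leiden resolution 0.8 and -0.99 with doublets kept. Trimmed-mean scaling moved every ventricular ratio by -0.17, and median-of-ratios scaling by -0.18, so the sign of Kcnd3, Kcnk3 and Kcnj3, which lie between 0.05 and 0.18, is not settled.

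Among the repolarising currents of ventricular nuclei, the channels differed in direction. Kcnh2 was at -0.86 (-1.41 to -0.34), Kcnip2 at -0.34 (-0.54 to -0.14) and Kcnj2 at -0.35 (-0.70 to -0.01). Kcng2 was at 0.74 (0.52 to 0.96), Kcnj5 at 0.60 (0.04 to 1.16), Kcnd2 at 0.54 (0.17 to 0.92) and Kcnj11 at 0.35 (0.13 to 0.58). For Kcnn2 (-0.06), Kcnj3 (0.05), Kcnd3 (0.17) and Kcnk3 (0.18) the interval included 0. As scaled here, the transient outward set was not of one direction: Kcnd2 was higher in the CF-KI library and Kcnip2 lower. The lower bounds of Kcnd2 (0.17), Kcnj11 (0.13) and Kcnj5 (0.04) lie within the -0.18 by which median-of-ratios scaling moved every ratio. That scaling would bring 0 into their intervals, so their direction is not settled. In the shared subcluster described next, the intervals of both Kcnd2 and Kcnip2 included 0.

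Several values moved with these ratios. The ventricular nuclei of the libraries sat mostly in different subclusters: 1925 of the control nuclei and 25 of the CF-KI nuclei in one, 22 and 1321 in another, and 103 and 618 in the one they shared. In that shared subcluster alone, Kcnv2 was at -0.81 (-2.20 to 0.82), Kcna7 at -0.39 (-1.85 to 1.38) and Kcnj8, with 1 control UMI, at 1.31 (-1.43 to 6.72), intervals that include 0. So did those of Kcnip2 at 0.03 (-0.62 to 0.74), Kcnj2 at -0.33 (-1.26 to 0.71), Kcnj5 at 0.42 (-1.33 to 2.80), Kcnd2 at 0.81 (-0.52 to 2.5) and Kcnj11 at 0.22 (-0.47 to 0.98). The interval left out 0 there for Kcnh2 at -1.63 (-2.84 to -0.34), Kcng2 at 1.32 (0.44 to 2.35) and Kcnj13 at -1.81 (-3.46 to -0.03), the last on 9 CF-KI and 6 control UMIs. That restriction was added after the data were seen. The median mitochondrial share of these nuclei was 3.27% in the CF-KI and 0.343% in the control library, and the 8 cardiomyocyte markers summed to 29780 and 39030 CPM, with 6 of the 8 lower in the CF-KI library. For Kcnj8 the 7 pericyte markers in ventricular nuclei summed to 71.4 CPM in the CF-KI and 36.3 CPM in the control library, with 6 of 7 higher in CF-KI and none at 0; their part in the Kcnj8 ratio was not tested.

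**Figure D3:**
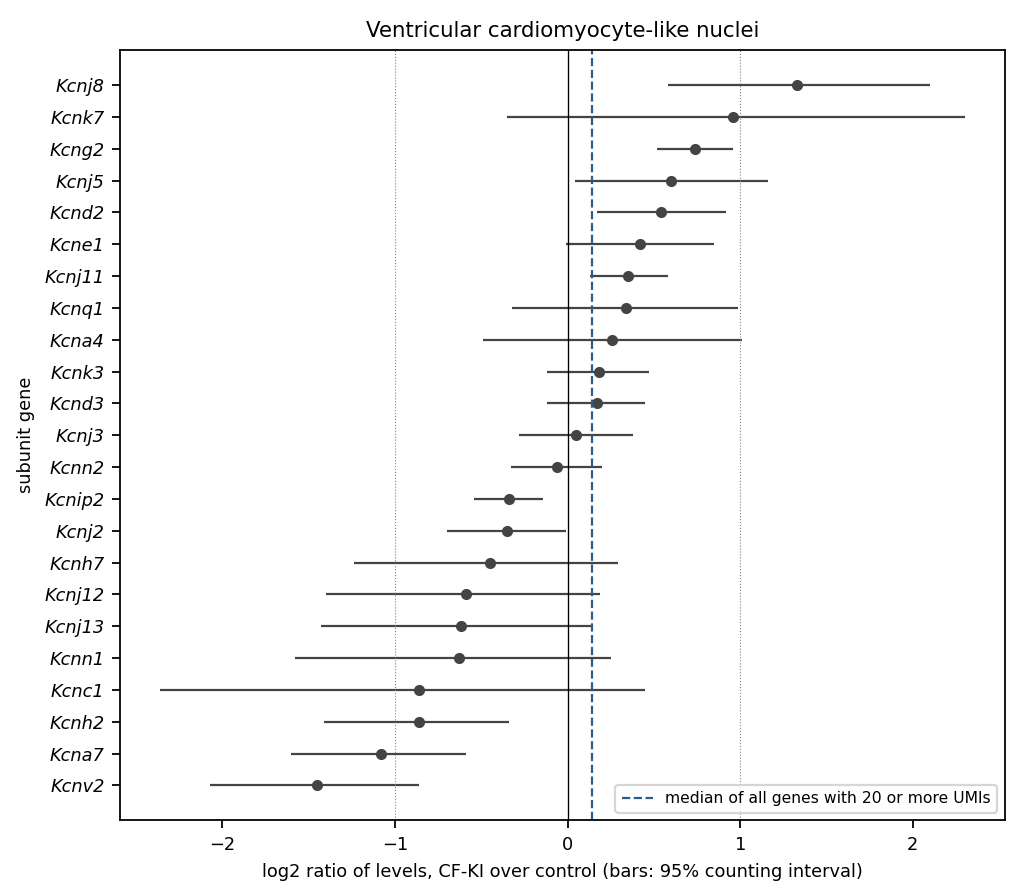
Log2 ratio of CF-KI over control level for 23 of the members measured in ventricular nuclei, with 95% counting intervals; the dashed line is the median of all genes at 0.14 and dotted lines mark 2-fold. Kcnj8 lies beyond the upper and Kcna7 and Kcnv2 beyond the lower dotted line.

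The list of 40 partner genes of potassium transport had 28 measured in ventricular nuclei, 14 higher and 14 lower in the CF-KI library. Past 2-fold were Sgk1, a kinase that raises the surface level of several channels (1.39, 0.58 to 2.24, on 37 CF-KI and 21 control UMIs), and Irx5, a transcription factor of the ventricular wall known to repress Kcnd2 (-1.29, -1.89 to -0.72, on 33 and 120 UMIs). Whether the Irx5 and Kcnd2 ratios are linked was not tested. Abcc9 was at 0.60 (0.42 to 0.78) and Abcc8 at -0.30 (-0.68 to 0.07).

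Fibroblast nuclei, the class that uses the Tcf21 promoter, had 27 members measured, with a median of 0.21 beside -0.02 over all 12397 genes. At least 2-fold higher in the CF-KI library were 10 members, where 5.28% of all genes were, and at least 2-fold lower was 1, where 2.88% were. The higher ones were Kcnj11 (2.15, 1.17 to 3.23), Kcng2 (1.80), Kcnip1 (1.53), Kcnk5 (1.45), Kcnj3 (1.42), Kcnd2 (1.28), Kcna1 (1.24), Kcnk3 (1.17), Kcna5 (1.13) and Kcnip2 (1.07), and the lower one was Kcnip3 (-1.30, -2.36 to -0.36). All 11 intervals left out 0. The 2-fold calls of Kcng2 (0.51) and Kcnk3 (0.46) ended with free RNA subtracted, those of Kcna5 (0.49), Kcnd2 (0.30) and Kcnj3 (0.89) at 500 genes per nucleus, and those of Kcna1 (0.35), Kcnip2 (0.79) and Kcnip3 (-0.92) when nuclei were thinned to 500 UMIs. With at most 5% mitochondrial UMIs, Kcnj3 was at 0.44 and Kcnk3 at 0.38 on 1 and 2 CF-KI UMIs.

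Cardiomyocyte RNA moved with the same contrast in fibroblast nuclei. The 8 cardiomyocyte markers had log2 ratios of 0.81 to 1.89 there, with a median of 1.26, and summed to 9456 CPM in the CF-KI and 3628 CPM in the control library, none at 0. Of the 10 higher members, 6 were higher in ventricular than in fibroblast nuclei in both libraries, and 5 of those (Kcnj11, Kcng2, Kcnd2, Kcnip2 and Kcnj3) had a fibroblast level that was a share of their ventricular level no larger than the largest such share among the 8 markers. For Kcnk3 the share in the control library was 22.6%, and the largest marker share 22.2%. Their part in the result was not tested. The other members, Kcna1, Kcna5, Kcnip1 and Kcnk5, were not higher in ventricular nuclei and had 31, 23, 19 and 18 CF-KI UMIs. Kcna5 led in endothelial nuclei, whose markers stood in fibroblast nuclei at a median of 4.3% (CF-KI) and 2.5% (control) of their endothelial level. Kcna1 and Kcnk5 led in mesothelial nuclei among the larger classes, and for mesothelial markers that share was 2.2% and 1.4%. The part of these markers was not tested.

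The members with most UMIs in fibroblasts did not follow that direction. Kcnk2 was at -0.62 (-0.83 to -0.41), and Kcnt2 at 0.00 (-0.22 to 0.23). CF-KI fibroblasts lay mostly in the cluster led by Egfros and Dnm3os (1604 CF-KI and 426 control nuclei) and control fibroblasts in the one led by Rgs17 and Msc (299 and 1672). Kcnk2 was lower in the CF-KI library in both: 112 against 126 CPM in the first and 112 against 165 CPM in the second. It was also lower in the clusters led by Myoc and Cilp (88.0 against 156 CPM), by Has2 and Gfpt2 (80.2 against 111 CPM) and by Cilp and Mfap4 (97.7 against 184 CPM), though the intervals overlapped in all of these clusters but that led by Myoc. The 9 fibroblast markers summed to 24860 CPM in the CF-KI and 42670 CPM in the control library, 8 of 9 lower and none at 0, and their part in the Kcnk2 ratio was not tested.

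**Figure D4:**
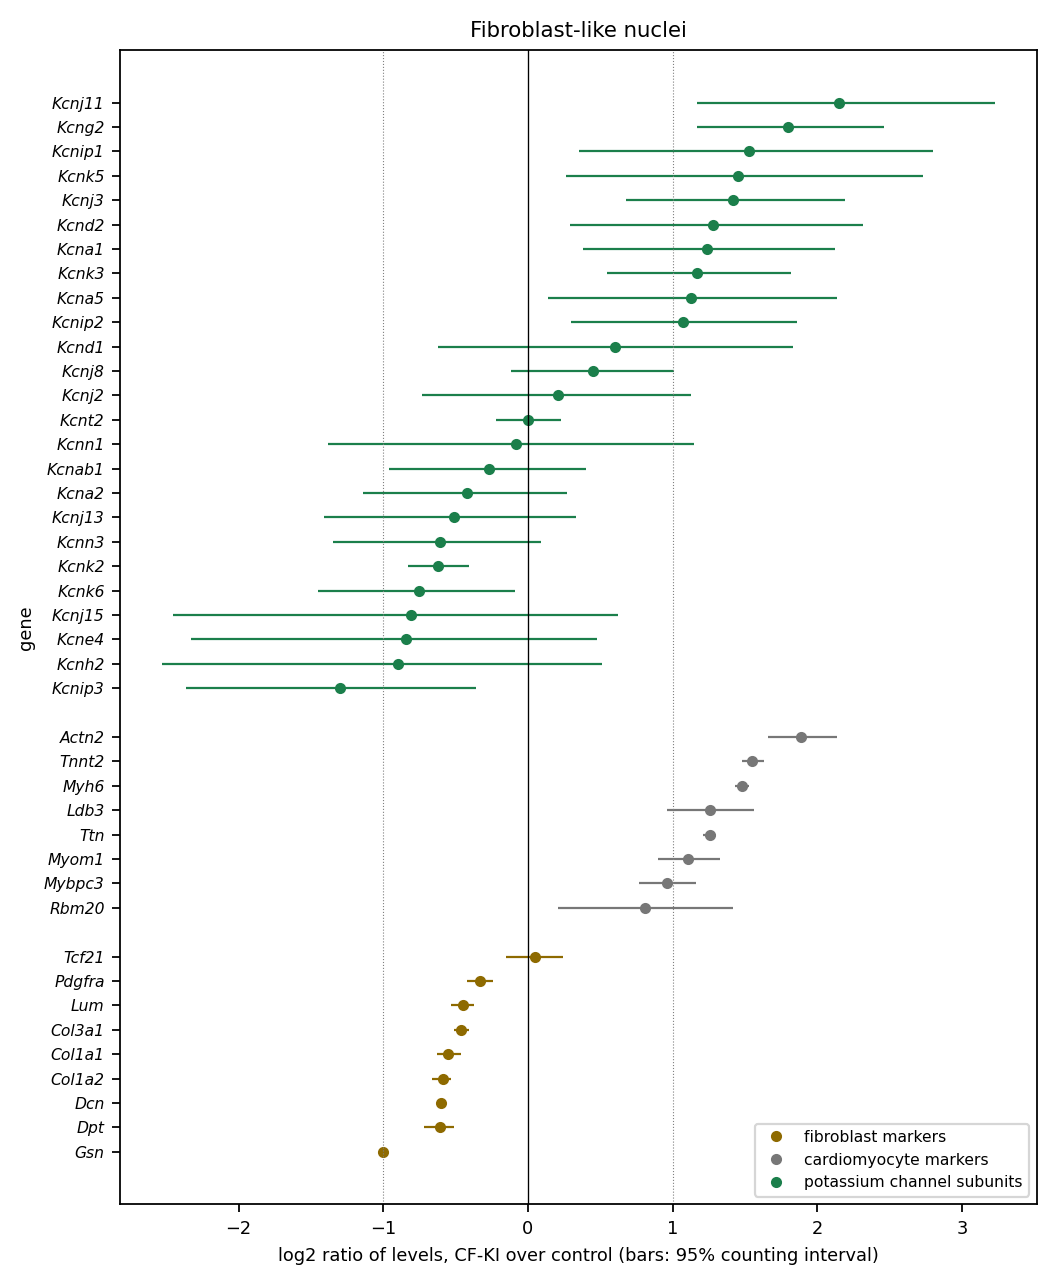
Log2 ratio of CF-KI over control level in fibroblast nuclei for 25 of the members measured (green), the 8 cardiomyocyte markers (grey) and the 9 fibroblast markers (brown), with 95% counting intervals and dotted lines at 2-fold. The 10 highest members lie over the same range as the cardiomyocyte markers, which run from 0.81 to 1.89, apart from Kcnj11 at 2.15.

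Macrophage nuclei had 13 members measured, with a median of 0.96 beside -0.06 over all genes. In the CF-KI library 6 were at least 2-fold higher, where 10.1% of all 9397 genes were: Kcnk3 (2.10, 0.87 to 3.53), Kcnj11 (2.05), Kcnk2 (1.89), Kcng2 (1.85), Kcnd2 (1.81) and Kcna5 (1.49). At least 2-fold lower were Kcnk6 (-1.11, -1.77 to -0.48) and Kcnk13 (-1.28, -2.93 to 0.17), where 9.98% of all genes were. The lower ones were the leak channels described above as highest in macrophages, and none of the 6 higher ones had its highest level there. Beside this, the 8 cardiomyocyte markers were all higher in CF-KI macrophage nuclei, by 1.19 to 2.41 log2 units, with sums of 15760 and 5102 CPM, and the 6 macrophage markers were all lower, with sums of 2610 and 7315 CPM. Other lists moved too: the 8 endothelial markers were all higher (1798 against 783.9 CPM), as were the 7 pericyte markers (600.3 against 199.8 CPM) and 8 of 9 fibroblast markers (3475 against 3003 CPM), with none of these at 0. Of the 6 higher members 4 were higher in ventricular than in macrophage nuclei; Kcna5 and Kcnk2, which led in endothelium and fibroblasts, were not. The part of these markers in the ratios was not tested. Kcnk6 came to 0.21 with free RNA subtracted and -0.77 with doublets kept, Kcnk2 to 0.45 with doublets kept, Kcnj11 to 0.88 at Leiden resolution 2.5 and Kcna5 to 0.62 when thinned.

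Endocardial nuclei had 12 members measured, with a median of 0.07 beside -0.04 over all genes. Kcng2 (2.52, 1.32 to 3.94), Kcnk3 (2.49, 1.06 to 4.24), Kcnj8 (1.63, 0.58 to 2.79) and Kcnip2 (1.29, -0.12 to 2.83) were at least 2-fold higher in the CF-KI library, where 6.62% of all 9534 genes were, and Kcnk6 lower (-1.14, -2.07 to -0.28), where 3.88% were. Kcng2, Kcnk3 and Kcnip2 had levels within the cardiomyocyte markers' shares of the ventricular level, and those markers were all higher by 0.88 to 2.13. Beside Kcnj8, the 7 pericyte markers summed to 329.1 CPM in the CF-KI and 226.8 CPM in the control library, with 5 of 7 higher and none at 0; their part was not tested. Kcnk6 was at -0.84 with free RNA subtracted, and Kcnj8 at 0.78 with at most 5% mitochondrial UMIs, on 1 CF-KI UMI. The members that led in endocardium moved less: Kcnc2 was at 0.01 (-0.61 to 0.62), Kcnn3 at 0.13 (-0.69 to 0.94) and Kcnn4 at -0.85 (-1.84 to 0.07).

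In endothelial nuclei 13 members were measured, with a median of 0.26 beside -0.06 over all genes. The sign of that median was not stable: it was -0.10 at Leiden resolution 2.5 and, over 3 members each, -0.98 with at most 5% mitochondrial UMIs and -0.59 at a minimum of 100 UMIs. None of the 13 passed 2-fold, where 3.56% of all 9933 genes were higher and 3.19% lower. The endothelial gene Kcna5 was lower in the CF-KI library, at -0.59 (-0.86 to -0.33). The 8 endothelial markers summed to 8556 CPM in the CF-KI and 9634 CPM in the control library, with 7 of 8 lower and none at 0; their part was not tested. The capillary cluster held 959 CF-KI and 400 control nuclei; the Kcna5 levels of both endothelial clusters are given above, and the part of the cluster shares was not tested.

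Pericyte nuclei had 3 members measured, none past 2-fold, where 13.4% of all 4958 genes were higher and 5.67% lower. Kcnj8 was at 0.35 (0.11 to 0.59), Kcnmb1 at 0.25 (-1.20 to 1.66) and Kcne4 at 0.05 (-1.28 to 1.33). The 7 pericyte markers summed to 9233 CPM in the CF-KI and 7361 CPM in the control library, with 5 of 7 higher. Mesothelial nuclei had 8 members measured, of which Kcng2 was at least 2-fold higher (2.79, 1.03 to 5.19, on 19 and 3 UMIs), where 7.24% of all genes were, and none at least 2-fold lower, where 3.95% were, while the mesothelial leaders Kcnd2 (-0.26, -1.01 to 0.48) and Kcnk5 (-0.17, -1.05 to 0.70) had intervals that included 0. The 8 cardiomyocyte markers were higher in CF-KI mesothelial nuclei too, by 0.26 to 1.35.

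Few members could be compared in the smaller classes. None of 2 adipocyte and 2 lymphatic endothelial members, and not the 1 atrial member, passed 2-fold; the shares of all genes 2-fold higher and lower were 10.7% and 8.03% in adipocyte, 9.96% and 6.2% in lymphatic endothelial and 10.3% and 12.3% in atrial nuclei. In adipocyte nuclei Kcnk3 was at -0.94 (-1.92 to -0.05). Beside this, the 7 adipocyte markers summed there to 2307 CPM in the CF-KI and 3199 CPM in the control library, with 6 of 7 lower. The 8 cardiomyocyte markers summed to 7290 and 3191 CPM, with 7 of 8 higher in CF-KI. The part of these markers in the Kcnk3 ratio was not tested. In lymphatic endothelial nuclei Kcnn3 was at 0.50 (-0.45 to 1.5) and Kcnj8 at -0.32 (-1.69 to 1.08). In atrial nuclei only Kcnj3 reached the minimum, at -0.70 (-2.09 to 0.45), and trimmed-mean scaling would lower that by a further 0.62. A difference in any other atrial subunit was not detectable at this depth.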

How the data were processed

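The authors deposited raw UMI counts per gene and barcode, 1 matrix per library. Per the labels' protocols, nuclei were profiled with the 10x Genomics 3' v3 kit; per the submitters' processing notes Cell Ranger 6.1.1 and mm10 were used. Strand and intron settings are not given in the sources used here.

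A barcode was kept if it had 200 or more genes and no more than 20% of its UMIs were mitochondrial, after removing the 1805 CF-KI and 1008 control barcodes scored highest by Scrublet, as many as the loading would give; its automatic threshold had marked 1 control barcode. Both libraries were clustered together (scanpy 1.11.5, leidenalg 0.10.2, Leiden resolution 1.5, 27 clusters) on 2000 variable genes without Kcn genes. Clusters were named from marker lists, and cardiomyocyte and mural clusters were clustered again at resolution 1.0. Counts were summed per library and class and scaled to CPM over non-mitochondrial UMIs. A ratio needed 20 UMIs over both sides. Levels carry exact Poisson and ratios conditional exact binomial 95% intervals (scipy 1.17.1). "At least 2-fold" is a log2 ratio of 1 or more either way. A side with 0 UMIs was set to 3 UMIs and not allowed to cross 0. Class totals were also scaled with edgeR 4.0.16 (TMM) and with median-of-ratios size factors (DESeq2 1.42.0). With 1 library per group no test was run. On counts simulated from the Poisson model that the intervals assume, the ratio intervals held the true value for 96.0% of 11707 genes in ventricular nuclei. The simulation had no spread between nuclei or animals and no free RNA. It therefore checks the calculation and not how well the intervals cover in these data.

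The members and gene lists were chosen with earlier results of these data known. The naming rules were revised after clusters, and the levels of some members by cardiomyocyte subcluster, had been seen. The 3-UMI rule replaced a prior of 0.5 UMIs after first results; it changed the counts of members by chamber and the shares of all genes past 2-fold. The 4 promoters, the motifs and the 3 alternatives marked as added were chosen after levels were seen. Members with at least 100 UMIs in the named classes, those of a textbook list of 20 heart subunits, and those past 2-fold with an interval leaving out 0 are named, with at most 6 partner genes; the values of 3 members are not reported here, and counts over the members include them. Of the 55 members, 29 overlap another annotated gene (GENCODE vM21), 27 of them one on the opposite strand.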

Additional observations from a re-analysis of the deposited data

How the results depend on the processing

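Of 110 values of summary results under an alternative, 92 kept the direction and stayed within the limits set, and 18 moved. No paired analysis was possible because each group has 1 library. The median in endothelial nuclei (0.26) was -0.98 at a 5% mitochondrial limit, which leaves 3 members, and -0.59 at a minimum of 100 UMIs. Of members highest in cardiomyocytes, the 9 of the CF-KI library became 17 without a mitochondrial limit, 16 at Leiden resolution 0.8, 5 with free RNA subtracted and 17 over the 7 larger classes (added after seeing the data); the 17 of the control library became 11 at a minimum of 100 UMIs. The chamber counts rested on few UMIs. Members at least 2-fold higher in CF-KI atrial nuclei (7) became 11 without a mitochondrial limit, 4 at 500 genes, 3 when nuclei were thinned to 500 UMIs and 2 at a minimum of 100 UMIs, and those in control nuclei (5) became 1 at that minimum. Members at least 2-fold lower in CF-KI atrial nuclei (3) became 1 without a mitochondrial limit and 0 at a 5% limit, at 500 genes, at resolution 0.8 and when thinned, and those in control nuclei (4) became 0 when thinned. The causes were not tested. Of 249 values for single genes, 233 stayed, 15 moved and 1 reversed: Kcnk6 in macrophage nuclei was 0.21 (-1.11 as reported) with free RNA subtracted. Kcng2 and Kcnk3 in fibroblast nuclei were 0.51 and 0.46 under the same subtraction, and Kcnj8 in ventricular nuclei was 0.53 at 500 genes. Alternatives that left a gene with 0 UMIs on one side gave no value for it.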
